A study of Arabidopsis thaliana with 12 samples.

Results

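Aquaporins are channels of the major intrinsic protein family that let water and small uncharged solutes such as hydrogen peroxide, ammonia, boric acid and arsenite cross membranes. The 35 Arabidopsis thaliana members described here were taken by locus identifier from the 34212 loci of the deposited gene table and fall into 5 PIP1, 8 PIP2, 10 TIP, 9 NIP and 3 SIP genes. They were measured by RNA sequencing of whole rosettes of 3-week-old plants of the natural accessions Cvi (Cvi-0) and Sha (Shahdara), exposed for 2 h to 350 nL L-1 of O3 or kept in clean air (CA). The 4 groups, Cvi O3, Cvi CA, Sha O3 and Sha CA, held 3 biological replicates each, and every one of the 12 libraries pooled RNA from 4 rosettes, so that the spread between single plants is not in the values. The labels name no transgene and no induced mutation.

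Plasma membrane intrinsic proteins (PIPs) carry water into and out of cells. PIP2 proteins form active water channels on their own, whereas PIP1 proteins reach the plasma membrane mainly in assemblies with PIP2 partners. Tonoplast intrinsic proteins (TIPs) sit in the vacuolar membrane, nodulin 26-like intrinsic proteins (NIPs) conduct metalloids such as boric acid and arsenite, and small basic intrinsic proteins (SIPs) reside in the endoplasmic reticulum. In leaves, PIPs and TIPs set the hydraulic conductance between veins and mesophyll, and some PIPs admit hydrogen peroxide and carbon dioxide. Members are written with a hyphen, so that PIP2-1 is the locus AT3G53420, which RefSeq lists as PIP2A.

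Levels are library-scaled read counts (CPM, counts per 1000000 after scaling by the trimmed mean of M values, TMM), and total estimated counts ran between 10794686 and 33571953 per library. Of the 35 members, 33 had a count in at least 1 library and 26 averaged at least 1 CPM over the 12 libraries. A member was called higher or lower where edgeR found a change beyond 1.2-fold at a false discovery rate of at most 0.05, with p-values adjusted over all 28549 genes tested, and errors of log2 fold changes are standard errors (SE). The Sha libraries numbered 2 stood apart in both treatments. Their counts differed from those of the other libraries of their groups by a chi-square per degree of freedom of 48.2 to 77.1, against 14.3 to 24.1 for all other pairs of replicates. Summed CPM of 5 leaf photosynthesis genes lay between 16440 and 20280 in Cvi O3 against 45820 to 50210 in Cvi CA, and between 7579 and 16970 in Sha O3 against 33450 to 45010 in Sha CA. The part of that loss of leaf transcripts in the aquaporin values was not tested, and in RNA from whole rosettes fewer cells of a type and less RNA per cell cannot be told apart. The root markers summed to at most 3.17 CPM, and all 7 seed storage markers stayed at or below the level of 3 counts in every library. The 7 pollen markers summed to between 2.53 CPM, in Sha O3, and 6.68 CPM, in Cvi CA, most of it ANX1. Reads of both accessions were assigned to transcripts of another accession, Col-0, so sequence differences that change the assignment of reads and differences in transcript level between accessions cannot be told apart.

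The channel pore is lined by a pair of Asn-Pro-Ala (NPA) boxes, and the stretches of coding sequence around a box are shown for the members on which the results turn, to set the subfamilies side by side. Each run of 39 bases comes from the RefSeq annotation of TAIR10.1, is written 5′ to 3′ on the coding strand and has the 3 codons of the box in capitals. The second box is given for PIP1-1 (chr3:22734846-22734884, plus strand, coding exon 3), PIP2-1 (chr3:19804155-19804193, minus strand, coding exon 3), PIP2-2 (chr2:15613881-15613919, minus strand, coding exon 3), PIP2-3 (chr2:15618651-15618689, plus strand, coding exon 3), TIP2-2 (chr4:9700071-9700109, plus strand, coding exon 2) and NIP5-1 (chr4:6431680-6431718, minus strand, coding exon 4). For SIP1-1 the first box is given (chr3:1073801-1073839, minus strand, coding exon 1).
PIP1-1: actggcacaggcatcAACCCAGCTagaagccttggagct
PIP2-1: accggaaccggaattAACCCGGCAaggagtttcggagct
PIP2-2: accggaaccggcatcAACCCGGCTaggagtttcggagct
PIP2-3: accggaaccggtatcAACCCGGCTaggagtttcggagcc
TIP2-2: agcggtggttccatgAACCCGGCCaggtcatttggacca
NIP5-1: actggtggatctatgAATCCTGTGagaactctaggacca
SIP1-1: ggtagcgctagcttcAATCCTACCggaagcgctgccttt
The second box of NIP5-1 ends in a codon for valine and the first box of SIP1-1 in a codon for threonine. The second boxes of the PIP and TIP members shown end in an alanine codon. So does the second box of SIP1-1, which is not shown. The windows of PIP2-2 and PIP2-3 differ at 2 bases. These tandem neighbours on chromosome 2 share 90.7% identity over 73.2% of the PIP2-2 transcript, with a longest common stretch of 242 bases, and 19.6% of the runs of 50 bases in PIP2-2 also occur in PIP2-3. How the authors' counting divided reads between the 2 genes is therefore uncertain, and their O3 responses and the difference of response are also given summed. No other pair of members reached 90% identity over 50% of a transcript.

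The aquaporin family as a whole was 3.52-fold lower in Cvi O3 than in Cvi CA and 2.92-fold lower in Sha O3 than in Sha CA by summed CPM. In Cvi O3 the 35 members summed to 2280, 2258 and 2371 CPM, against 8316, 8500 and 7526 CPM in Cvi CA. In Sha O3 they summed to 2109, 1796 and 2109 CPM, against 6145, 5067 and 6365 CPM in Sha CA. The O3 and CA libraries did not overlap in either accession, and without the Sha libraries numbered 2 the Sha ratio was 2.97. As a share of all counts, aquaporins made up 0.209% ± 0.00773 in Cvi O3 against 0.768% ± 0.0356 in Cvi CA, and 0.225% ± 0.00245 in Sha O3 against 0.608% ± 0.0690 in Sha CA (SD, n = 3). The sums are dominated by their largest terms. PIP2-1, TIP1-2 and PIP1-2 together made up 61.8% of the 5811 CPM by which the family sum was lower in Cvi O3, and 60.6% of the corresponding 3855 CPM in Sha.

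The 5 subfamilies did not move alike. The PIP2 sum was 4.43-fold lower in Cvi O3 than in Cvi CA and 3.89-fold lower in Sha O3 than in Sha CA. For PIP1 the ratios were 3.56 in Cvi and 2.63 in Sha, and for TIP they were 3.52 in Cvi and 3.11 in Sha. NIP sums overlapped between treatments in both accessions, with 97.1, 70.2 and 88.9 CPM in Cvi O3 against 122, 109 and 92.4 CPM in Cvi CA, and 84.3, 139 and 63.1 CPM in Sha O3 against 76.5, 107 and 60.1 CPM in Sha CA. SIP sums lay on the other side, at 157, 147 and 156 CPM in Cvi O3 against 73.0, 82.0 and 77.5 CPM in Cvi CA, and at 97.1, 113 and 110.3 CPM in Sha O3 against 67.7, 79.4 and 64.8 CPM in Sha CA. Per kilobase of transcript, SIP genes held 7.40% ± 0.218 of the family's level in Cvi O3 against 1.09% ± 0.0829 in Cvi CA, and 5.98% ± 1.00 in Sha O3 against 1.40% ± 0.358 in Sha CA. SIP1-1 alone made up 6.51% in Cvi O3 against 0.793% in Cvi CA, and 4.22% in Sha O3 against 0.820% in Sha CA. The PIP2 share was 27.7% ± 0.783 in Cvi O3 against 35.2% ± 1.64 in Cvi CA, and 21.7% ± 1.68 in Sha O3 against 29.3% ± 2.71 in Sha CA (SD, n = 3). The shares are given as descriptions and were not tested.

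**Figure D1:**
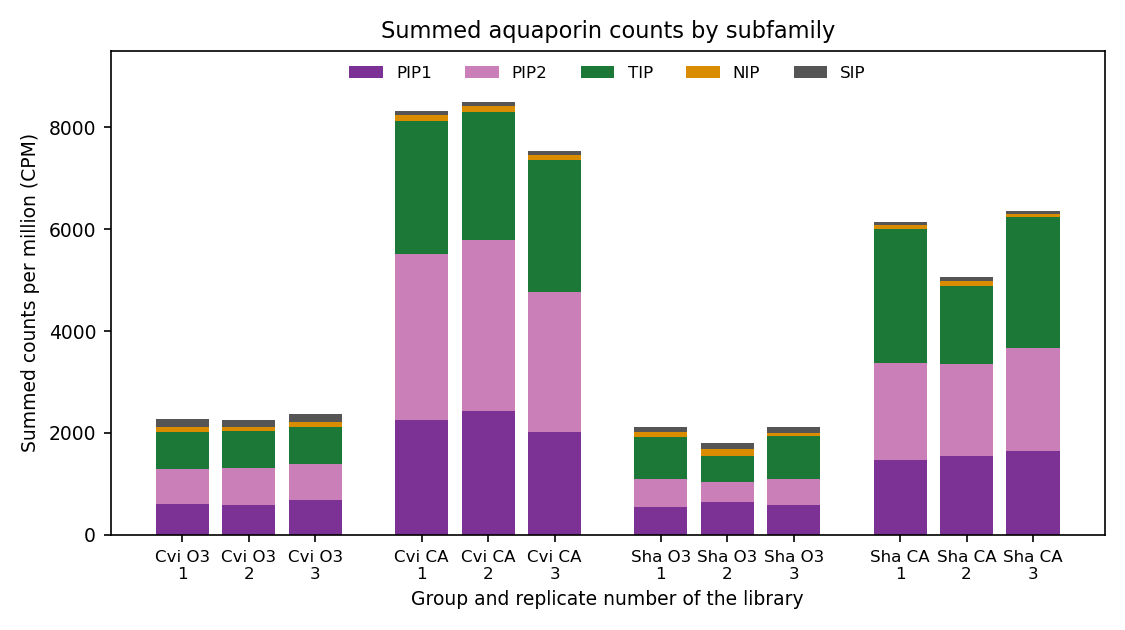
Summed CPM of the aquaporin genes in each of the 12 libraries (x axis: group and replicate number, y axis: summed CPM), with PIP1, PIP2, TIP, NIP and SIP stacked from bottom to top. The 3 Cvi O3 bars reach 2258 to 2371 CPM against 7526 to 8500 CPM for Cvi CA, and the 3 Sha O3 bars reach 1796 to 2109 CPM against 5067 to 6365 CPM for Sha CA.

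Gene by gene, 19 of the 33 members with counts fell and 3 rose in Cvi, and 15 fell and 2 rose in Sha. At 1 CPM or more, 17 of 26 fell and 1 rose in Cvi, and 15 fell and 2 rose in Sha. Of all 19107 genes of that level, 32% were lower and 28.8% higher in Cvi, and 23.4% lower and 24.4% higher in Sha. The Cvi calls below that level were those of TIP3-1, TIP3-2, TIP2-3 and NIP3-1, of which the first 3 were not tested after a filter on low counts (filterByExpr) and all 4 were lost with DESeq2. With a limit of 1.2 on the log2 scale in place of 1.2-fold, 14 members were called in Cvi and 4 in Sha. Among all genes tested, 47.5% were called in Cvi, 23.2% lower and 24.3% higher, and 34.5% in Sha, 16.6% lower and 17.9% higher. The 15 members that fell in both accessions comprise all 5 PIP1 genes, 6 PIP2 genes and 4 TIP genes. SIP1-1 rose in both. The median log2 fold change over the 26 members of at least 1 CPM was -0.98 in Cvi and -1.04 in Sha, beside -0.13 and -0.04 over all 19107 genes of that level. By subfamily the Cvi medians were -1.62 for PIP1, -1.24 for PIP2, -1.90 for TIP, -0.42 for NIP and 0.12 for SIP. The corresponding Sha medians were -1.45, -1.04, -1.40, -0.09 and 0.15. All 3 Cvi O3 libraries lay below all 3 Cvi CA libraries for 20 of the 26 members and above them for 2, so that 84.6% did not overlap, beside 77.8% of all genes of that level. In Sha 15 lay below and 1 above, or 61.5%, beside 58.7%.

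**Figure D2:**
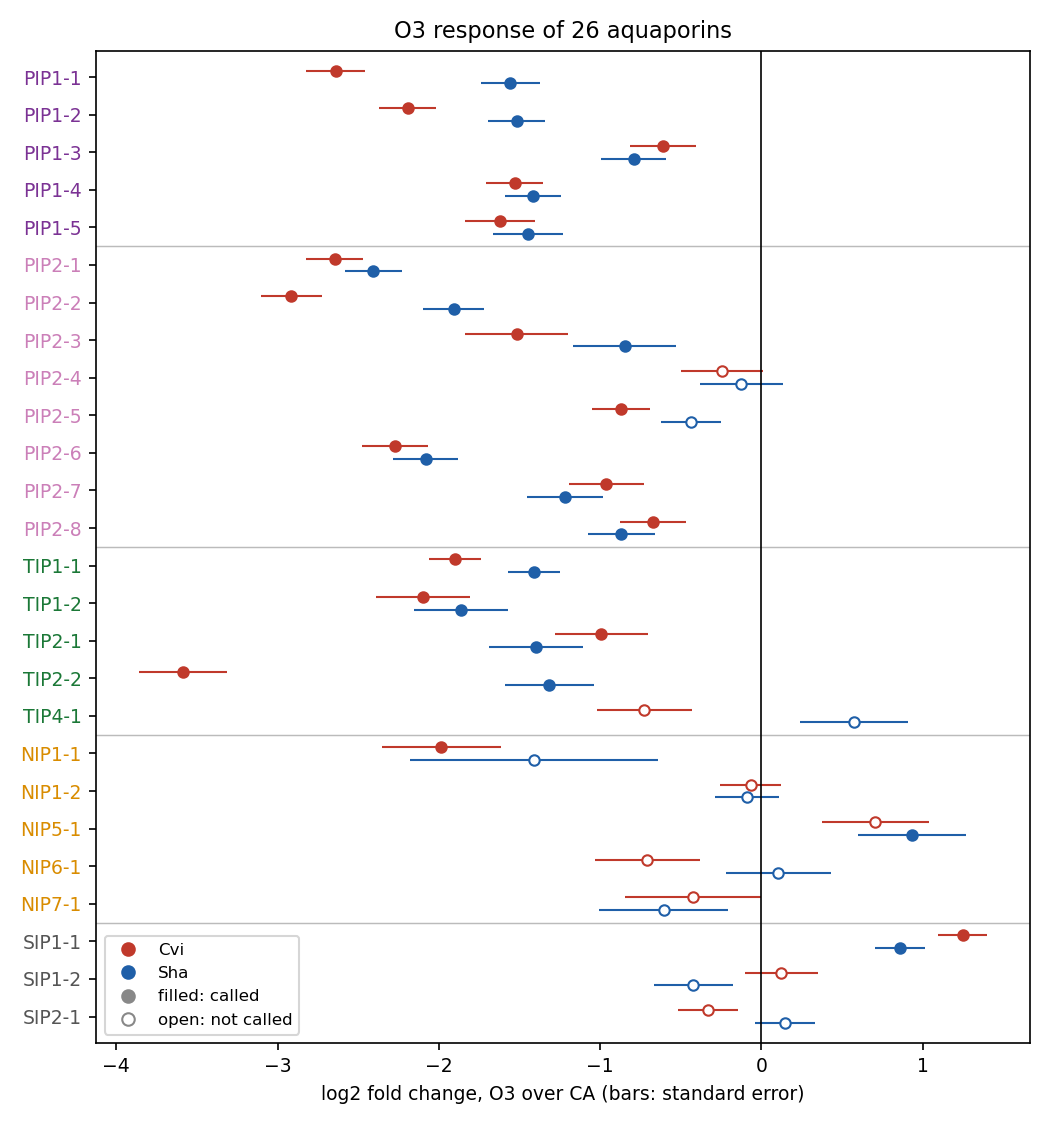
Log2 fold change of O3 over CA (x axis, bars: SE) for the 26 aquaporins of at least 1 CPM, ordered by subfamily from PIP1 at the top to SIP at the bottom, with Cvi in red and Sha in blue and filled points for called changes. PIP1, PIP2 and most TIP points lie left of 0, from -3.59 for TIP2-2 in Cvi, and the SIP1-1 points lie right of 0 at 1.25 in Cvi and 0.86 in Sha.

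All 5 PIP1 genes fell in both accessions. PIP1-1 (AT3G61430) had 67.8, 64.9 and 76.8 CPM in Cvi O3, against 440.0, 500.4 and 363 CPM in Cvi CA. In Sha O3 it had 74.0, 91.7 and 81.5 CPM, against 219, 273 and 237 CPM in Sha CA. The O3 libraries of both accessions overlapped, while Cvi CA lay above Sha CA without overlap. The log2 fold change was -2.64 ± 0.18 in Cvi (adjusted p = 2.13e-35) and -1.56 ± 0.18 in Sha (adjusted p = 2.26e-12), a fall of 6.22-fold and 2.94-fold. PIP1-2, a leaf and root PIP known to admit carbon dioxide, averaged 241 ± 19.8 CPM in Cvi O3 against 1104 ± 119.8 CPM in Cvi CA, and 257 ± 31.3 CPM in Sha O3 against 735 ± 65.9 CPM in Sha CA (SD, n = 3). Its log2 fold changes were -2.19 ± 0.18 (adjusted p = 4.52e-26) and -1.52 ± 0.18 (adjusted p = 2.5e-12). PIP1-4, known to carry hydrogen peroxide during immunity, fell by 1.53 ± 0.17 in Cvi and by 1.42 ± 0.18 in Sha on the log2 scale, and PIP1-5 fell by 1.62 ± 0.22 and by 1.45 ± 0.22.

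PIP1-3 had the smallest PIP1 fall in both accessions. It averaged 166 ± 20.1 CPM in Cvi O3 against 253 ± 21.8 CPM in Cvi CA, and 104 ± 20.0 CPM in Sha O3 against 179.7 ± 33.2 CPM in Sha CA. The log2 fold changes were -0.61 ± 0.20 in Cvi (adjusted p = 0.0282) and -0.79 ± 0.20 in Sha (adjusted p = 0.00414). The Cvi call was lost without Cvi CA library 1 (adjusted p = 0.0789), Cvi CA library 2 (0.0690), Cvi O3 library 1 (0.0877) or Cvi O3 library 2 (0.0832), and the Sha call without Sha CA library 3 (0.0575). With DESeq2 size factors in place of TMM (0.0582) or with DESeq2 (0.243) the Cvi call was lost too. Over all alternatives the adjusted p ran between 0.00161 and 1 in Cvi and between 0.000225 and 1 in Sha. Both upper ends came from testing against a log2 change of 1.2, which these smaller changes cannot pass. Apart from that test the highest Cvi value was the 0.243 of DESeq2.

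Of the 8 PIP2 genes, 7 fell in Cvi and 6 in Sha. PIP2-1 (AT3G53420), an abundant water and hydrogen peroxide channel of leaf veins and guard cells, had 301, 331 and 346 CPM in Cvi O3, against 2095, 2277 and 1738 CPM in Cvi CA. It had 250.3, 203 and 211 CPM in Sha O3, against 1155, 1203 and 1165 CPM in Sha CA. Neither accession showed any overlap between treatments. The log2 fold change was -2.64 ± 0.18 in Cvi (adjusted p = 1.01e-37) and -2.41 ± 0.18 in Sha (adjusted p = 5.51e-31), the largest fall of a PIP in Sha. PIP2-2 (AT2G37170), which contributes to water uptake by roots, had 27.6, 24.3 and 30.1 CPM in Cvi O3, against 212, 216 and 191 CPM in Cvi CA. Its Sha O3 libraries had 23.8, 19.8 and 29.7 CPM, against 76.2, 96.1 and 103 CPM in Sha CA. Its fall was the largest of a PIP in Cvi, with log2 fold changes of -2.92 ± 0.19 in Cvi (adjusted p = 9.73e-41) and -1.91 ± 0.19 in Sha (adjusted p = 2.21e-17).

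PIP2-3, cloned as RD28 for its response to desiccation, averaged 42.6 ± 2.13 CPM in Cvi O3 against 122 ± 25.4 CPM in Cvi CA, and 31.7 ± 15.1 CPM in Sha O3 against 57.0 ± 12.4 CPM in Sha CA. It fell by 1.52 ± 0.32 on the log2 scale in Cvi (adjusted p = 5.12e-05) and by 0.85 ± 0.32 in Sha (adjusted p = 0.0457). The Sha call was lost under 12 of 25 alternatives, among them leaving out Sha CA library 1 or 3, Sha O3 library 2, Cvi CA library 2 or 3 or any Cvi O3 library, and its adjusted p ran between 7.56e-07 and 1. Summed with PIP2-2, the pair fell by 2.23 in Cvi and by 1.41 in Sha. PIP2-6, a leaf vein PIP, averaged 56.0 ± 7.58 CPM in Cvi O3 against 270.2 ± 8.94 CPM in Cvi CA and 58.5 ± 13.4 CPM in Sha O3 against 247 ± 37.2 CPM in Sha CA, with log2 fold changes of -2.27 ± 0.20 and -2.08 ± 0.20 (adjusted p = 8.55e-22 and 4.6e-18).

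Of the remaining 4 PIP2 genes, 3 fell in Cvi and 2 in Sha. PIP2-7 (AT4G35100), a PIP whose transcript is known to drop early under salt, had 233, 236 and 218 CPM in Cvi O3 against 487, 434 and 414 CPM in Cvi CA. Sha O3 libraries had 148, 94.7 and 149 CPM against 339.8, 211 and 359 CPM in Sha CA, the libraries numbered 2 being the lowest of each Sha group. It fell by 0.96 ± 0.23 in Cvi (adjusted p = 0.000950) and by 1.22 ± 0.23 in Sha (adjusted p = 2.65e-05) on the log2 scale. PIP2-8 fell by 0.67 ± 0.20 in Cvi (adjusted p = 0.0147) and by 0.87 ± 0.21 in Sha (adjusted p = 0.00157), at 13.1 ± 0.462 CPM in Cvi O3 against 20.9 ± 4.86 CPM in Cvi CA. Without Cvi CA library 1 its Cvi call was lost (adjusted p = 0.125, within a range of 0.000932 to 1 over the alternatives). With DESeq2 that call was lost too (adjusted p = 0.202). PIP2-5, one of the few PIPs whose transcript is known to be kept up in drying leaves, fell by 0.87 ± 0.18 in Cvi (adjusted p = 0.000187), while its log2 fold change of -0.44 ± 0.18 in Sha was not called (adjusted p = 0.151). PIP2-4, mainly a root PIP, stayed between 1.34 and 2.76 CPM over all libraries and was called in neither accession, with log2 fold changes of -0.24 ± 0.26 in Cvi and -0.12 ± 0.26 in Sha.

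**Figure D3:**
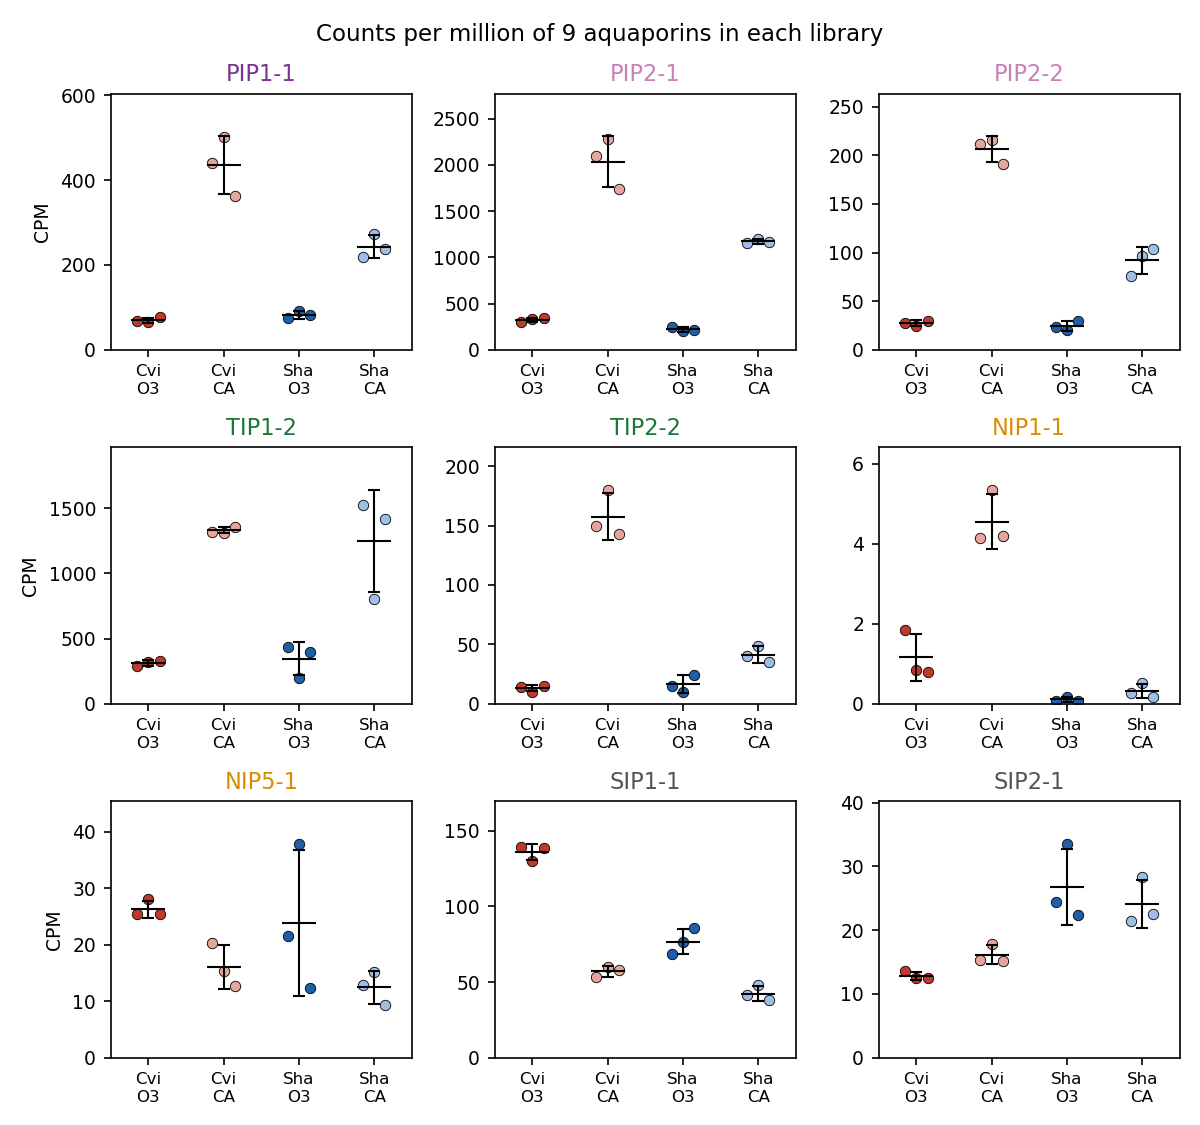
CPM of 9 aquaporins in every library (y axis, linear from 0, 1 panel per gene), by group along the x axis in the order Cvi O3, Cvi CA, Sha O3 and Sha CA, with lines and bars for mean ± SD (n = 3). O3 points lie below CA points in both accessions for PIP1-1, PIP2-1, PIP2-2, TIP1-2 and TIP2-2 and above them for SIP1-1, while NIP1-1 is near 0 in Sha.

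Among the TIPs, 5 members averaged at least 1 CPM, and 4 of these fell in both accessions. TIP1-2 (AT3G26520), a tonoplast water channel of vegetative tissue, had 287, 320.4 and 326 CPM in Cvi O3, against 1320, 1313 and 1358 CPM in Cvi CA. The Sha O3 libraries had 432, 198 and 400.0 CPM, against 1524, 805 and 1418 CPM in Sha CA. The Sha libraries numbered 2 were the lowest of their groups, and the groups still did not overlap. The log2 fold change was -2.10 ± 0.29 in Cvi (adjusted p = 5.64e-10) and -1.86 ± 0.29 in Sha (adjusted p = 6.59e-08). TIP1-1, the gamma-TIP that marks lytic vacuoles, averaged 158 ± 4.99 CPM in Cvi O3 against 591 ± 41.2 CPM in Cvi CA and 172 ± 9.93 CPM in Sha O3 against 457 ± 44.0 CPM in Sha CA. It fell by 1.90 ± 0.16 in Cvi (adjusted p = 1.23e-23) and by 1.41 ± 0.16 in Sha (adjusted p = 1.14e-12). TIP2-1, the delta-TIP, which also conducts ammonia, averaged 247 ± 9.35 CPM in Cvi O3 against 491 ± 46.4 CPM in Cvi CA and 187 ± 46.3 CPM in Sha O3 against 493 ± 199.8 CPM in Sha CA. It fell by 0.99 ± 0.29 in Cvi (adjusted p = 0.00515) and by 1.40 ± 0.29 in Sha (adjusted p = 6.93e-05).

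TIP2-2 (AT4G17340), best known as a tonoplast channel of roots, had the largest fitted fall of any member above 1 CPM. It had 14.4, 10.2 and 14.7 CPM in Cvi O3, against 149.8, 179.8 and 143 CPM in Cvi CA. In Sha O3 it had 15.2, 10.1 and 24.5 CPM, against 40.0, 49.0 and 35.5 CPM in Sha CA. The O3 libraries of both accessions overlapped, while every Cvi CA library lay above every Sha CA library. It was 12.0-fold lower in Cvi (log2 fold change -3.59 ± 0.27, adjusted p = 1.05e-28) and 2.49-fold lower in Sha (-1.31 ± 0.28, adjusted p = 8.6e-05). TIP4-1, a root TIP that also conducts urea and glycerol, was low, with 2.08, 1.34 and 1.36 CPM in Cvi O3 against 2.51, 2.75 and 2.61 CPM in Cvi CA and 2.31, 2.29 and 1.21 CPM in Sha O3 against 1.36, 1.45 and 1.06 CPM in Sha CA. Neither its log2 fold change of -0.73 ± 0.29 in Cvi (adjusted p = 0.0507) nor that of 0.58 ± 0.33 in Sha (adjusted p = 0.238) was called. The Cvi value was called lower without Sha O3 library 2 or 3 or Cvi O3 library 1 (adjusted p = 0.0242, 0.0362 and 0.0161, over a range of 0.0154 to 1), and the Sha value higher without Sha O3 library 3 (0.97, adjusted p = 0.0214, over a range up to 1). Root markers, whose part in the levels of these root-associated TIPs was not tested, summed to 1.46 to 3.17 CPM in Cvi O3 against 0.282 to 0.349 CPM in Cvi CA, most of it MYB36 in O3, and to 0.0377 to 0.144 CPM in Sha O3 against 0.145 to 0.544 CPM in Sha CA, with all 6 at or under the level of 3 counts in Sha O3.

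Of the 7 NIP genes with counts, 2 fell in Cvi and 1 rose in Sha. NIP1-1 (AT4G19030), a channel through which arsenite and antimonite enter plants, had 1.84, 0.842 and 0.801 CPM in Cvi O3, against 4.14, 5.34 and 4.18 CPM in Cvi CA. Levels in Sha were 0.0721, 0.181 and 0.0754 CPM in O3, against 0.272, 0.509 and 0.172 CPM in Sha CA. It fell by 1.98 ± 0.37 on the log2 scale in Cvi (adjusted p = 2.17e-06), and the Sha value of -1.41 ± 0.77, which rests on 1, 3 and 2 counts in Sha O3 against 3, 7 and 5 in Sha CA, was not called (adjusted p = 0.135). NIP5-1 (AT4G10380), the boric acid importer that supplies boron under limitation, had 25.4, 28.0 and 25.4 CPM in Cvi O3, against 20.3, 15.3 and 12.6 CPM in Cvi CA. In Sha O3 it had 21.5, 37.8 and 12.3 CPM, against 12.9, 15.2 and 9.41 CPM in Sha CA. The groups did not overlap in Cvi, where the log2 fold change of 0.71 ± 0.33 was not called (adjusted p = 0.0951) except without Sha O3 library 2 or 3 or both Sha libraries numbered 2 and in 3 other alternatives (adjusted p 0.000846 to 1), and overlapped in Sha, where the value of 0.94 ± 0.33 was called higher (adjusted p = 0.0320).

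The Sha rise of NIP5-1 was carried by Sha O3 library 2. Without it the log2 fold change was 0.40 (adjusted p = 0.353), and the call was also lost without Sha CA library 1 (adjusted p = 0.0716), without Sha CA library 3 (adjusted p = 0.125) and without both Sha libraries numbered 2 (log2 fold change 0.68, adjusted p = 0.0577). DESeq2 (adjusted p = 0.134) and upper quartile scaling (0.0713) lost the call too. Against the Sha CA library of the same number, 18 of the 26 members of at least 1 CPM were lower in Sha O3 in 3 of 3 comparisons. Among the 18 were NIP1-1, PIP2-5 and SIP1-2, which were not called. Another 3 were higher in 3 of 3, NIP5-1, TIP4-1 and SIP1-1. The share of all genes with such agreement was not computed, so these counts are a description and not a test. NIP6-1, which passes boric acid to young leaves, averaged 44.3 ± 13.2 CPM in Cvi O3 against 72.3 ± 10.8 CPM in Cvi CA and 59.7 ± 25.4 CPM in Sha O3 against 55.5 ± 18.6 CPM in Sha CA, and was called in neither accession (log2 fold changes -0.71 ± 0.32 and 0.11 ± 0.33). Without Sha O3 library 2 its Cvi value was called lower (-0.75, adjusted p = 0.0222, over a range of 0.00217 to 1). NIP1-2, linked to aluminium uptake, stayed between 8.52 and 14.2 CPM over all libraries, with log2 fold changes of -0.07 ± 0.19 in Cvi and -0.09 ± 0.20 in Sha. NIP7-1, an anther boric acid channel, lay between 0.543 and 2.25 CPM over all libraries and was called in neither accession (-0.42 ± 0.42 and -0.60 ± 0.40).

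SIP1-1 was the only member called higher in both accessions. This water channel of the endoplasmic reticulum (AT3G04090) had 139, 129.9 and 139 CPM in Cvi O3, against 53.2, 60.3 and 58.2 CPM in Cvi CA. It had 68.5, 76.5 and 85.5 CPM in Sha O3, against 41.2, 47.8 and 38.2 CPM in Sha CA. O3 and CA libraries did not overlap in either accession. SIP1-1 was 2.38-fold higher in Cvi (log2 fold change 1.25 ± 0.15, adjusted p = 5.88e-11) and 1.82-fold higher in Sha (0.86 ± 0.16, adjusted p = 5.75e-05). SIP1-2, a second water channel of the endoplasmic reticulum, stayed between 2.45 and 5.08 CPM over all libraries and was called in neither accession (0.12 ± 0.23 in Cvi and -0.42 ± 0.25 in Sha). SIP2-1 (AT3G56950), which showed little water transport in yeast membranes, had 13.6, 12.5 and 12.5 CPM in Cvi O3, against 15.4, 17.9 and 15.2 CPM in Cvi CA. It had 24.4, 33.5 and 22.3 CPM in Sha O3, against 21.4, 28.3 and 22.6 CPM in Sha CA, and was called in neither accession (-0.33 ± 0.19 and 0.15 ± 0.18).

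Levels of different members were compared per kilobase of the longest annotated transcript. In Cvi CA the order was led by PIP2-1 at 1295 ± 174, TIP1-2 at 1031 ± 18.8 and PIP1-2 at 731 ± 79.4 CPM per kb, and in Sha CA by TIP1-2 at 968 ± 301, PIP2-1 at 747 ± 15.9 and PIP1-2 at 487 ± 43.7 CPM per kb (SD, n = 3). The first and second of Sha CA overlapped in their ranges. In Cvi O3 the leading members were TIP1-2 at 241 ± 16.3, TIP2-1 at 208 ± 7.86 and PIP2-1 at 207 ± 14.6 CPM per kb, the last pair lying within each other's spread. In Sha O3 they were TIP1-2 at 266 ± 98.1, PIP1-2 at 170.2 ± 20.7 and TIP2-1 at 158 ± 39.0 CPM per kb, all overlapping. SIP1-1 stood at rank 8 of 35 in Cvi O3 with 105 ± 4.03 CPM per kb, against rank 16 with 44.3 ± 2.80 CPM per kb in Cvi CA. In Sha it stood at rank 8 in O3 with 59.5 ± 6.58 CPM per kb, against rank 15 with 32.8 ± 3.81 CPM per kb in CA.

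The stretches before the annotated transcript start are shown for TIP2-2, which had the largest fitted fall, for PIP2-1, which lost the most CPM in both accessions, and for SIP1-1, which moved the other way, since 15 PIP and TIP genes fell in both accessions. Each holds 300 bases upstream of the start in TAIR10.1, written 5′ to 3′ on the strand of the gene: PIP2-1 (chr3:19805731-19806030, minus strand), TIP2-2 (chr4:9698640-9698939, plus strand) and SIP1-1 (chr3:1074245-1074544, minus strand). Capitals mark the letters of the abscisic acid response element core (ACGTG) or the WRKY factor W-box core (TTGAC), here both in the reverse orientation, and the TIP2-2 window held neither.
PIP2-1: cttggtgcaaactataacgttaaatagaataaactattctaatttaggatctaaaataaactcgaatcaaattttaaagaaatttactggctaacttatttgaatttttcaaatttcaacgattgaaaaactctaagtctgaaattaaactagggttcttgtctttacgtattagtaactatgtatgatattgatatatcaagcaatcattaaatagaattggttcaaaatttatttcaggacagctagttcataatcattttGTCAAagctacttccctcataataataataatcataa
TIP2-2: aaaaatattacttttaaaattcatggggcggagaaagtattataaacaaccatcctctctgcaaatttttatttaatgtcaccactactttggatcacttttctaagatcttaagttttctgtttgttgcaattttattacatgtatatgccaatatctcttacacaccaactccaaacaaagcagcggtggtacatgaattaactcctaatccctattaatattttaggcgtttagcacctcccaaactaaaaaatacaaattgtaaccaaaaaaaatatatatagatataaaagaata
SIP1-1: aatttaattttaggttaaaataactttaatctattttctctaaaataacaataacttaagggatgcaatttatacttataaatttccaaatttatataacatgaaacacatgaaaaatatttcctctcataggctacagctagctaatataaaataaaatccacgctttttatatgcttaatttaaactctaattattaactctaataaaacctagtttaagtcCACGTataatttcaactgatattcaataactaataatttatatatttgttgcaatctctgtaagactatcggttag
Searched on both strands in the 300 bases upstream of 27443 protein-coding genes, ACGTG occurred in 25.6%, TTGAC in 50.4%, the drought response element core CCGAC in 13.9% and the evening element AAATATCT in 5.64%. Among the 35 members, ACGTG occurred in 4, TTGAC in 20, CCGAC in 4 and AAATATCT in 0. By subfamily, ACGTG occurred in 0 of 13 PIP, 3 of 10 TIP, 0 of 9 NIP and 1 of 3 SIP windows. SIP1-1, which rose, held it 76 bases before the start, and TIP1-1, which fell in both accessions, held it 62 bases before. TTGAC occurred in 6 of 13 PIP, 5 of 10 TIP, 8 of 9 NIP and 1 of 3 SIP windows. These matches describe letters in a window and no binding was measured.

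The O3 responses of the 2 accessions were set beside each other by the interaction term of the same fit. A difference was called for 3 members, all with a more negative log2 fold change in Cvi, beside 8.93% of all genes tested, 2.6% in that direction and 6.33% in the other. They were TIP2-2 with a difference (Cvi minus Sha) of -2.27 ± 0.39 (adjusted p = 3.1e-06), PIP1-1 with -1.08 ± 0.26 (adjusted p = 0.00363) and PIP2-2 with -1.01 ± 0.27 (adjusted p = 0.0111). For each of the 3, Cvi O3 and Sha O3 libraries overlapped and Cvi CA libraries lay above Sha CA libraries, at 143 to 180 against 35.5 to 49.0 CPM for TIP2-2, 363 to 500.4 against 219 to 273 CPM for PIP1-1 and 191 to 216 against 76.2 to 103 CPM for PIP2-2. The PIP2-2 call was lost without Cvi O3 library 2 (-0.93, adjusted p = 0.0524), with DESeq2 (adjusted p = 0.0579) and when summed with PIP2-3 (-0.82, adjusted p = 0.156), over a range of 0.000431 to 1. With replicate blocks fitted separately within Cvi and Sha, TIP4-1 (-1.24, adjusted p = 0.0312) and NIP6-1 (-0.82, adjusted p = 0.0338) were called as well, which makes 5. Over all alternatives their adjusted p ran between 0.00314 and 1 and between 0.0338 and 1. TIP4-1 was also called without Sha O3 library 3 (-1.64) or Cvi O3 library 1 (-1.53), and PIP2-3 without Sha O3 library 2 (-1.03, adjusted p = 0.0141, over a range up to 1).

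Over the 26 members of at least 1 CPM, the fitted log2 fold change was more negative in Cvi for 18 and in Sha for 8. Their median difference (Cvi minus Sha) was -0.23, beside -0.01 over all 19107 genes of that level. This count and the correlations below were not computed over all genes, so none is shown to be particular to aquaporins. The responses of both accessions went together across members, with Pearson's r = 0.847 and Spearman's rho = 0.880 (26 genes, which are not independent replicates, and which share the depth and scaling of their libraries). Members with a higher level in CA tended to have the more negative response. So that no response was set beside its own control libraries, the level per kb was taken from the other accession. The Cvi response was set beside the level in Sha CA (r = -0.441, rho = -0.554) and the Sha response beside the level in Cvi CA (r = -0.661, rho = -0.720). Same-numbered Cvi CA and Sha CA libraries deviated together (correlations 0.257, 0.413 and 0.223), so response and level are still not independent. No member was called in opposite directions in the 2 accessions. PIP2-5, NIP1-1, NIP3-1 and TIP2-3 fell in Cvi and were not called in Sha, and the test of the difference was not called for any of the 4.

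In clean air, 8 members were higher in Cvi than in Sha and 0 were lower, beside 18.1% of all genes tested, 8.84% higher and 9.28% lower. NIP1-1 differed most, at 4.14, 5.34 and 4.18 CPM in Cvi CA against 0.272, 0.509 and 0.172 CPM in Sha CA (log2 fold change 3.94 ± 0.50, adjusted p = 1.07e-14). TIP2-2 followed with 1.93 ± 0.27 (adjusted p = 4.44e-09) and PIP2-2 with 1.17 ± 0.19 (adjusted p = 1.91e-06). PIP2-3, TIP4-1, PIP1-1 and PIP2-1 were higher by 1.10 ± 0.32, 1.05 ± 0.32, 0.84 ± 0.18 and 0.79 ± 0.18 on the log2 scale. The division of reads between PIP2-2 and PIP2-3 is uncertain, and summed as a pair they were still called higher. The eighth, TIP2-3, rests on 4, 4 and 1 counts in Cvi CA against 0 in all 3 Sha CA libraries, and was lost under 10 of 23 alternatives, among them leaving out any Sha CA library or Cvi CA library 1 or 2 (adjusted p over the alternatives 0.0175 to 0.849). PIP2-3 was lost without Sha CA library 2 (adjusted p = 0.0792) or Cvi CA library 1 (0.0909), over a range of 1.06e-05 to 1, and TIP4-1 without Sha CA library 3 (0.184) or Cvi CA library 2 (0.0581), over a range of 0.00204 to 1. Both were also lost with DESeq2 (0.0740 and 0.164), and TIP4-1 with scaling to total counts only (0.0550). Same-numbered libraries of Cvi CA and Sha CA deviated together, and with the replicate number as a block 9 members were called, PIP1-2 (0.58, adjusted p = 0.0435) and SIP2-1 (-0.58, adjusted p = 0.0304) being gained and TIP2-3 lost (adjusted p = 0.0502). Without both Sha libraries numbered 2, 11 were higher and 0 lower. Leaving out 1 library also brought calls in both directions. PIP1-2 was called higher in Cvi without Sha O3 library 2 or Cvi CA library 3, and PIP2-5 and NIP2-1 higher without Sha CA library 2. NIP7-1 was called lower in Cvi without Sha O3 library 2 or 3. SIP2-1 was called lower in Cvi without Sha CA library 1 or Sha O3 library 2 or 3.

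In O3, 7 members were higher in Cvi than in Sha and 1 was lower, beside 32.4% of all genes tested, 18.5% higher and 13.9% lower. NIP1-1 again differed most (3.36 ± 0.69, adjusted p = 2.34e-07), at 1.84, 0.842 and 0.801 CPM in Cvi O3 against 0.0721, 0.181 and 0.0754 CPM in Sha O3. SIP1-1 was 1.77-fold higher in Cvi O3 (0.82 ± 0.15, adjusted p = 0.000168) and PIP2-7 1.75-fold higher (0.81 ± 0.23, adjusted p = 0.0107). PIP1-3 (0.68 ± 0.20, adjusted p = 0.0207) and PIP2-1 (0.56 ± 0.18, adjusted p = 0.0438) were also higher, and SIP2-1 was 2.07-fold lower (-1.05 ± 0.19, adjusted p = 1.69e-05). TIP3-1 and TIP3-2 complete the 7. They had 0 counts in all 6 Sha libraries and so passed the filter of 1 count through Cvi alone, were lost with DESeq2 (adjusted p = 0.358 and 0.157) and were not tested with filterByExpr. At 1 CPM or more, 5 members were higher and 1 was lower, beside 20.3% and 16.4% of all genes of that level. The PIP2-1 call was lost under 15 of 24 alternatives (adjusted p 0.00629 to 1). PIP1-3 was lost without Sha O3 library 1 or 2 or Cvi O3 library 3 (adjusted p over the alternatives 0.00380 to 1), and PIP2-7 without Sha O3 library 2 (adjusted p = 0.0513, over a range of 0.00253 to 1). Scaling to total counts only lost both (0.209 and 0.0970). NIP7-1 was called lower without Sha O3 library 2 (-1.21) and SIP1-2 higher without Sha O3 library 1 (0.74). TIP2-2, PIP2-2 and PIP1-1, higher in Cvi in clean air, had log2 fold changes of -0.34 ± 0.28, 0.16 ± 0.19 and -0.24 ± 0.18 in O3 and were not called. Without both Sha libraries numbered 2, TIP2-2 was called lower in Cvi O3 (-0.64, adjusted p = 0.0298, over a range up to 1). Of the 26 members above 1 CPM, 14 had all Cvi libraries above all Sha libraries in CA and 3 had all below, or 65.4% beside 44.7% of all genes of that level, against 6 and 2 in O3, or 30.8% beside 55.7%.

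**Figure D4:**
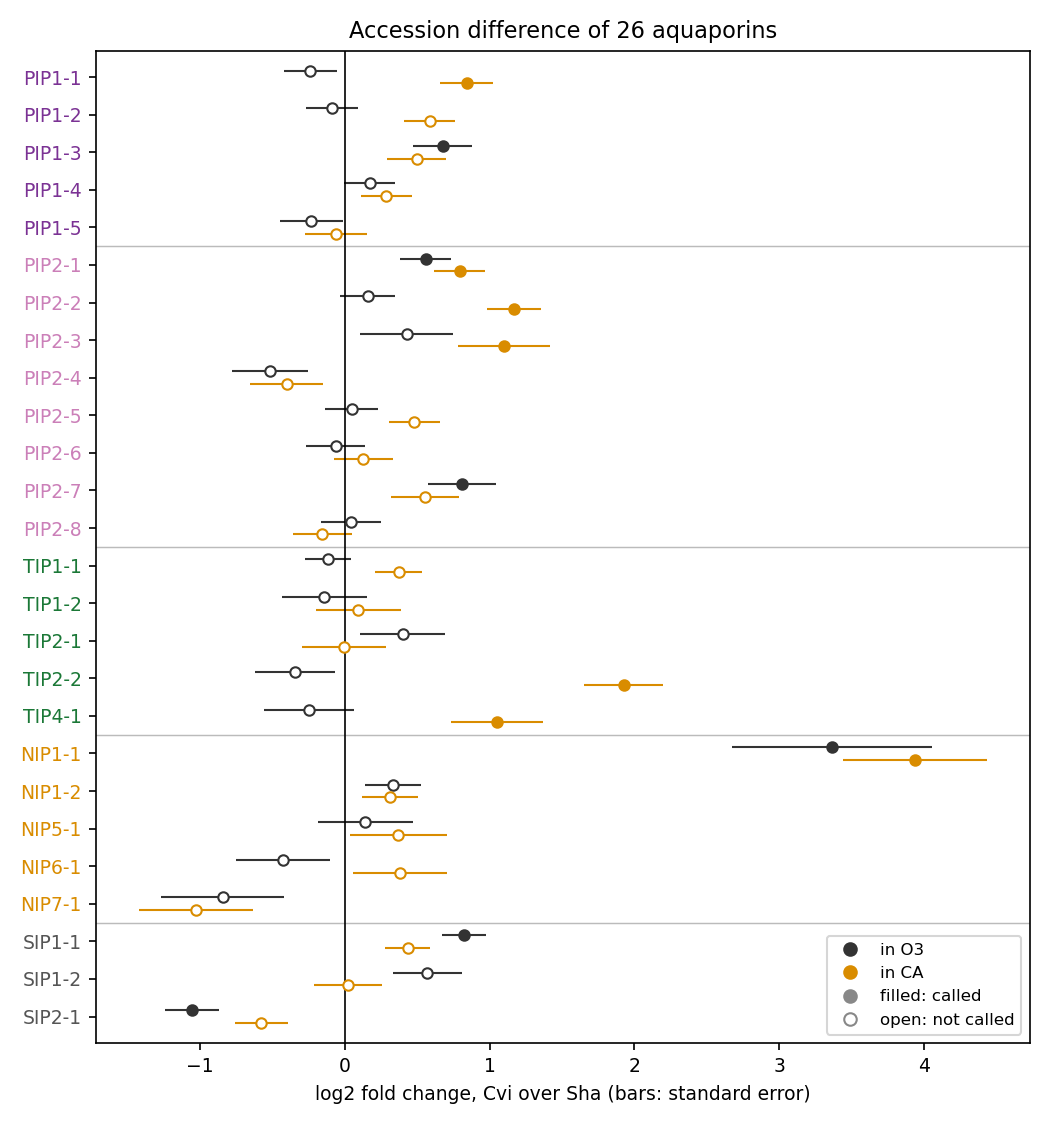
Log2 fold change of Cvi over Sha (x axis, bars: SE) for the 26 aquaporins of at least 1 CPM, in O3 (black) and in CA (orange), with filled points for called differences. NIP1-1 lies farthest to the right, at 3.36 in O3 and 3.94 in CA, and TIP2-2 is at -0.34 in O3 and 1.93 in CA.

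The 9 members under 1 CPM were counted rarely, and no fold is given where a group had no count. NIP4-1 and NIP4-2, tandem neighbours on chromosome 5, had 0 counts in every library. TIP1-3 had 2 counts over all 12 libraries, TIP5-1 had 12 and NIP2-1 had 44, and none of these 3 was called in any comparison over all 12 libraries. NIP2-1 had 0, 6 and 0 counts in Sha CA, and without library 2 of that group, or without both Sha libraries numbered 2, it was called higher in Sha O3 than in Sha CA and in Cvi CA than in Sha CA. TIP3-1 and TIP3-2, the TIPs of protein storage vacuoles in seeds, were called higher in Cvi O3, where TIP3-1 had 0, 11 and 17 counts against 0 in the other 9 libraries and TIP3-2 had 1, 7 and 11 against 0, 1 and 0 in Cvi CA and 0 in the 6 Sha libraries. Library 1 of Cvi O3 held almost none of these counts, both genes overlap a gene on the other strand, and whether the authors' counting used strand is not given in the sources used here. TIP2-3, an ammonia-conducting TIP, was called lower in Cvi, with 0, 0 and 0 counts in Cvi O3 against 4, 4 and 1 in Cvi CA and 0, 1 and 0 in Sha O3 against 0, 0 and 0 in Sha CA. NIP3-1, which carries boric acid and arsenite, was called lower in Cvi, with 5, 6 and 10 counts in Cvi O3 against 31, 14 and 15 in Cvi CA (-1.26 ± 0.44, adjusted p = 0.0118). Its call was lost without Cvi CA library 1 (-0.96, adjusted p = 0.0967, over a range of 0.00352 to 0.611). Genes on the opposite strand also overlap TIP2-1, TIP5-1, NIP2-1, NIP6-1, SIP1-2 and SIP2-1.

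A list of genes whose proteins act on PIPs or work with the boric acid channels holds 13 genes of PIP phosphorylation, membrane traffic and turnover and the 7 BOR borate exporters. In Cvi 9 of the 20 rose and 4 fell, beside 24.3% higher and 23.2% lower among all genes tested, and in Sha 10 rose and 3 fell, beside 17.9% and 16.6%. Of the 13 acting on PIPs, 8 rose and 3 fell in Cvi and 8 rose and 2 fell in Sha, and of the 7 BOR genes 1 rose and 1 fell in Cvi and 2 rose and 1 fell in Sha. Over all 20 the log2 fold changes had medians of 0.87 in Cvi and 0.63 in Sha, beside 0 over all genes tested in both accessions. SYP121, the plasma membrane syntaxin through which PIPs are delivered, had 565, 491 and 489 CPM in Cvi O3 against 17.2, 18.2 and 23.0 CPM in Cvi CA. It had 344, 324 and 374 CPM in Sha O3 against 22.7, 34.8 and 28.3 CPM in Sha CA. It was 26.5-fold higher in Cvi (4.73 ± 0.20, adjusted p = 4.29e-88) and 12.1-fold higher in Sha (3.60 ± 0.20, adjusted p = 1.59e-54), the largest rise of the list in both.

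BAK1, a receptor kinase co-receptor reported to phosphorylate PIP2-1 in guard cells, had 302, 279.6 and 280.4 CPM in Cvi O3 against 30.4, 28.0 and 27.4 CPM in Cvi CA, and 202, 147 and 245 CPM in Sha O3 against 35.5, 38.5 and 37.4 CPM in Sha CA. Its log2 fold changes were 3.33 ± 0.19 in Cvi (adjusted p = 7.65e-51) and 2.42 ± 0.19 in Sha (adjusted p = 2.54e-27). CPK7, a calcium-dependent kinase that affects PIP2-1 abundance in roots, had 234, 240.5 and 243 CPM in Cvi O3 against 26.9, 27.0 and 29.2 CPM in Cvi CA, and 156, 172 and 173 CPM in Sha O3 against 31.1, 37.4 and 38.1 CPM in Sha CA. Its log2 fold changes were 3.11 ± 0.15 (adjusted p = 2.68e-70) and 2.23 ± 0.15 (adjusted p = 7.71e-36). For these 3 genes the rise was called larger in Cvi, with differences (Cvi minus Sha) of 1.13 ± 0.28 for SYP121 (adjusted p = 0.00443), 0.91 ± 0.27 for BAK1 (adjusted p = 0.0291) and 0.88 ± 0.21 for CPK7 (adjusted p = 0.00762). They made up 15% of the 20 partner genes, beside 6.33% of all genes tested called in that direction. The BAK1 difference was lost without Sha CA library 3 or any 1 of the 6 Cvi libraries (adjusted p = 0.0535 to 0.0876, within 0.00265 to 1 over all alternatives), and the CPK7 difference without Sha CA library 3 (adjusted p = 0.0614, within 0.000132 to 1). With scaling to total counts only, both differences were lost (0.0535 for BAK1 and 0.0788 for CPK7).

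BOR1, the exporter that loads borate into the xylem, had the largest fall of the list in Cvi, with 27.4, 22.0 and 24.8 CPM in Cvi O3 against 74.7, 66.4 and 54.7 CPM in Cvi CA (-1.40 ± 0.22, adjusted p = 7.53e-08). In Sha O3 it had 34.3, 54.9 and 38.1 CPM against 73.7, 94.0 and 62.7 CPM in Sha CA (-0.85 ± 0.22, adjusted p = 0.00291), a call lost without Sha O3 library 1 (adjusted p = 0.0779) or 3 (0.0684), over a range of 1.09e-05 to 1. RMA2, a RING ubiquitin ligase related to the one that keeps PIP2-1 in the endoplasmic reticulum, had the largest fall in Sha, with 9.30, 6.57 and 10.7 CPM in Sha O3 against 11.2, 24.6 and 18.0 CPM in Sha CA (-1.01 ± 0.29, adjusted p = 0.00604). In Cvi O3 it had 8.44, 9.91 and 9.19 CPM against 15.3, 25.3 and 15.5 CPM in Cvi CA (-1.02 ± 0.29, adjusted p = 0.00357). Its Sha call was lost without Sha CA library 2 (adjusted p = 0.0631) and without both Sha libraries numbered 2 (0.232), over a range of 0.000217 to 1. With DESeq2 the RMA2 call was lost in both accessions (adjusted p = 0.0662 in Cvi and 0.0521 in Sha).

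**Figure D5:**
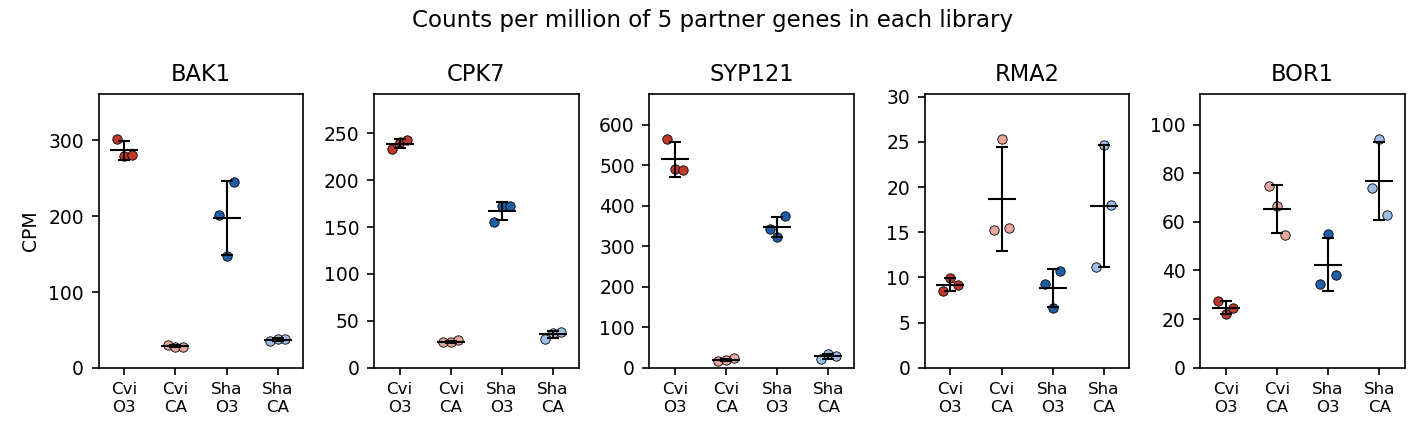
CPM of BAK1, CPK7, SYP121, RMA2 and BOR1 in every library (y axis, linear from 0), by group along the x axis in the order Cvi O3, Cvi CA, Sha O3 and Sha CA, with lines and bars for mean ± SD (n = 3). SYP121, BAK1 and CPK7 are higher in O3 than in CA in both accessions without overlap, and BOR1 and RMA2 are lower.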

How the data were processed

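Plants, exposure and libraries (TruSeq Stranded mRNA) were as described above. Per the study's methods and submitters' notes, the authors trimmed reads with Trimmomatic 0.33 in single-end mode and quantified them with kallisto on AtRTD2, a Col-0 transcriptome, averaging repeated quantifications. The deposited values are estimated counts per gene without normalisation. The step from transcripts to genes and any use of strand are not given in the sources used here. Of the values, 69.4% were not whole and were rounded, and 6 columns of other samples were not used.

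Genes counted at least once (28549) were fitted over all 12 libraries in edgeR 4.0.16 (R 4.3.3, limma 3.58.1) with TMM scaling, 1 mean per group and shared dispersions. The study's methods name glmLRT, and its text prints the limit of 1.2 on the log2 scale. As its supplement holds smaller log2 changes, the limit was read here as 1.2-fold, and contrasts were tested by glmTreat against that change, two-sided, with Benjamini-Hochberg adjustment and a limit of 0.05. DESeq2 1.42.0 and other alternatives are compared in the closing section. The script was tested on simulated data. Depth ran between 10794686 and 33571953 estimated counts per library, and 3 counts, the floor, correspond to 0.0941 to 0.272 CPM, covering counting error only.

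Replicate numbers are shared by the groups. Same-numbered libraries deviated together in every pair for Sha O3 and Sha CA (correlations 0.385, 0.592 and 0.406) and for Cvi CA and Sha CA (0.257, 0.413 and 0.223). The numbers were used as pairs only in the same-number comparisons in Sha and in the alternatives with a replicate block. The study's methods name no replicate term, and the main fit has none, so its standard errors and adjusted p-values leave this pairing out.

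The members and lists were chosen with earlier results of these data known. Members averaging at least 1 CPM are named, others only where called. Values in every library are given for the member with the largest rise and fall per subfamily and accession, members called for the difference of response, and the 3 most positive and negative between accessions. Partner genes are named where called for the difference or largest in change. Gene models, transcripts and upstream windows came from RefSeq TAIR10.1, and transcripts were compared with blastn 2.17.0.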

Additional observations from a re-analysis of the deposited data

Results flagged for a closer look

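The O3 responses of 6 genes differed between the accessions by the interaction term of the fit (Cvi minus Sha, log2 scale). These were 9.09% of the aquaporins with counts and 15% of the partner genes, beside 8.93% of all genes tested. TIP2-2 (-2.27), PIP1-1 (-1.08) and PIP2-2 (-1.01) fell more in Cvi, and SYP121 (1.13), BAK1 (0.91) and CPK7 (0.88) rose more in Cvi. For the 3 aquaporins the accessions differed in clean air (log2 Cvi over Sha 1.93, 0.84 and 1.17) and were not called different in O3 (-0.34, -0.24 and 0.16), except that TIP2-2 was called lower in Cvi O3 without both Sha libraries numbered 2 (-0.64, adjusted p = 0.0298, over a range up to 1). For the 3 partner genes the value in O3 was 0.57, 0.54 and 0.52, of which only CPK7 was called, and in clean air -0.56, -0.38 and -0.36, of which none was called. The CPK7 call in O3 held in 10 of 24 alternatives and was lost without Sha CA library 3, Sha O3 library 1 or 3 or any 1 of the 6 Cvi libraries (adjusted p = 0.0507 to 0.213, within 0.00214 to 1 over all alternatives). SYP121 was called higher in O3 in 5 alternatives and lower in clean air in 4, and BAK1 higher in O3 in 4.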

How the results depend on the processing

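Each result was repeated under up to 25 alternatives, of which leaving out both Sha libraries numbered 2 was chosen after seeing the data. Of the repeated fold changes, 4024 stayed on their side of the threshold, 150 lost the call and 78 gained it. No called value changed sign, whereas uncalled values could, such as PIP2-4 in Sha (-0.298 to 0.091). Requiring a log2 fold change of at least 1.2 left 14 aquaporins called in Cvi, 4 in Sha, 1 for the difference of response, 2 between accessions in CA and 3 in O3, and 4 partner genes in Cvi and 3 in Sha, against 22, 17, 3, 8, 8, 13 and 13. Fitted changes below 1.2 cannot pass this limit. For values called in the main fit, it gave the upper ends of 1 in the ranges of adjusted p above. Other counts that moved by over 1.5 times were 5 for the difference (total counts only), 5 for the difference (block of its own per accession), 13 (no minimum change) and 5 (DESeq2) in CA, and 5 in O3 (filterByExpr). Leaving out 1 library gave 19 to 25 called aquaporins in Cvi, 14 to 18 in Sha, 2 to 4 for the difference, 6 to 11 between accessions in CA and 6 to 8 in O3, and 11 to 13 partner genes in Cvi and 11 to 14 in Sha. The cause was not tested.

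With the replicate number as a block shared by all groups, 24 aquaporins were called in Cvi, 17 in Sha, 4 for the difference, 9 in CA and 8 in O3, and a block of its own per accession gave 25, 17 and 5 for the first 3. Numbers did not pair Cvi O3 with Cvi CA (correlations 0.127, -0.098 and -0.043) or Cvi O3 with Sha O3 (0.026, -0.154 and -0.009). A block of its own cannot be fitted to accession contrasts. Without both Sha libraries numbered 2 the counts were 24, 17, 4, 11 and 8, NIP5-1 being lost in Sha. Total counts shifted the median of all genes of at least 1 CPM by 0.107 (Sha), -0.173 (difference), -0.132 (CA) and -0.307 (O3), and upper quartile scaling by -0.175 (Cvi) and -0.103 (Sha). The split of higher against lower was 7 to 2 in CA and 4 to 3 in O3 with total counts, 7 to 2 in CA with filterByExpr, and 5 to 3 in O3 without the Sha libraries numbered 2, against 8 to 0 and 7 to 1. NIP7-1 and SIP2-1 were also called lower in CA with no minimum change, with only the groups compared and without Sha O3 library 2 or 3. SIP2-1 was called lower in CA with the shared block and without Sha CA library 1. In O3, NIP7-1 was called lower without Sha O3 library 2. Depth limits the 9 members under 1 CPM.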
